A study of Homo sapiens with 6 samples.

Results

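Accessible regions that lay deep inside protein-coding genes and were found in every library of the KMS-11 line were examined. Peaks with a −log10 q of at least 2 were merged over 6 deposited peak lists, on chromosomes 1 to 22. This gave 208856 regions, of which 59853 were overlapped by such a peak in all 6 lists. Members were those that also lay wholly inside a protein-coding gene and more than 10 kb from either annotated end of any gene. There were 12938 of them, 21.6% of the regions found in all 6. They were chosen by their −log10 q values in all 6 libraries, so a region lost from even 1 list is not among them, and their presence is no finding.

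KMS-11 was derived from a human myeloma, a malignancy of the plasma cells that secrete antibodies. ATAC-seq maps open chromatin with the Tn5 transposase, which cuts and tags accessible DNA. All 6 libraries carry the genotype label WT. The 3 control libraries are labelled LentiV2, a lentiviral vector, and the 3 knockdown libraries are labelled LentiV2_ATF4g3, that vector with 1 guide against ATF4. The labels call them biological replicates, name no second guide, and leave the mode of action of the guide unstated. ATF4 is the transcription factor of the integrated stress response, and the title of the study names its complex with p52 at enhancers. The comparison asked how the rank and width of constant regions inside genes differed between the groups.

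Open chromatin inside a gene body, far from its ends, mostly marks enhancers and other regulatory elements, which transcription factors hold open and which may act on the host gene or on a neighbour. Some of it marks alternative promoters, where a shorter transcript begins. Promoters that are rich in CpG dinucleotides tend to be open in many cell types, whereas enhancers and CpG-poor promoters tend to be open in particular cell types.

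The members at an alternative promoter are those whose sequence is at hand, and they include the region with the largest fall in rank. The table of RefSeq promoters on GRCh38.p14 holds 33725 windows on chromosomes 1 to 22, each of 250 bases before and 50 bases after an annotated start. Of the members, 464 (3.59%) overlapped such a window, 462 of them a window of their own host gene. The first sequence is the 250 bases before the start of IL21R that the member with the largest fall covers. Its capitals mark a match to TGATGNAAT, the C/EBP-ATF response element, to which ATF4 binds as a heterodimer with C/EBP proteins. The next 3 are shorter stretches around the same motif, in capitals, in each of the other members whose window holds it.
IL21R, chr16:27427021-27427270, plus strand: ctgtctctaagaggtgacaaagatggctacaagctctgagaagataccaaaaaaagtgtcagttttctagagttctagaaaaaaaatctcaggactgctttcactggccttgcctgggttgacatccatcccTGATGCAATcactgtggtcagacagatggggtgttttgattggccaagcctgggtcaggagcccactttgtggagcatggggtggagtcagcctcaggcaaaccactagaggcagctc
ATF7IP, chr12:14408240-14408286, plus strand: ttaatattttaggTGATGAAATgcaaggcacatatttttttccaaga
UIMC1, chr5:177006972-177007030, plus strand: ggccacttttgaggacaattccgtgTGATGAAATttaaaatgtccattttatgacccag
TACC2, chr10:122019561-122019619, plus strand: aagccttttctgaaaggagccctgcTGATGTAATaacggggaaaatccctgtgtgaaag

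A second set shows how unlike each other these starts are in CpG content, with each CG in capitals. CCDC181 is the start with the highest rank over all libraries. PRR5L has the largest called rise in rank at a start, and PRRC2B, which is rich in CpG, has the next largest.
CCDC181, chr1:169427475-169427724, minus strand: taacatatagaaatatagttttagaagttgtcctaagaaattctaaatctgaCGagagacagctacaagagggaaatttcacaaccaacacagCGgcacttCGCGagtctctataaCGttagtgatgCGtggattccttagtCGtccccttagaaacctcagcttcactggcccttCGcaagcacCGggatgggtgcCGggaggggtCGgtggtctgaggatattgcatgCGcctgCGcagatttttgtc
PRR5L, chr11:36400747-36400996, plus strand: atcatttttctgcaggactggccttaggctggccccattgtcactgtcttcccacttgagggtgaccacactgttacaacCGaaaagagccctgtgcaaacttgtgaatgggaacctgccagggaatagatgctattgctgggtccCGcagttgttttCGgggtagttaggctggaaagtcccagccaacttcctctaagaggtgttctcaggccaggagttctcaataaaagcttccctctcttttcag
PRRC2B, chr9:131393836-131394085, plus strand: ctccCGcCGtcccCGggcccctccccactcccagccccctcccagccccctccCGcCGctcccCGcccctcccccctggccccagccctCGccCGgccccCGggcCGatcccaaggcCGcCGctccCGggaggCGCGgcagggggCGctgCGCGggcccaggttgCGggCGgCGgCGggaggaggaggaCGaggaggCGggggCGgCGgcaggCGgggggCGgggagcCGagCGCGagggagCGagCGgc

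The motif was searched on both strands of the 250 bases before each start. It was found in 5 of the 576 windows under members (0.868%), 2 of which overlap at UIMC1, and in 299 of all 33725 windows (0.887%). The shares were alike, so the motif was not more frequent under members. The core of the cyclic AMP response element, TGACGT, was found in 6.94% of the windows under members and in 6.97% of all. The GC box, GGGCGG, was found in 51.6% and 42.7%, and TATAAA in 6.25% and 10.7%. The median number of CpG was 15 under members and 11 over all windows. A match describes the letters only and says nothing of binding.

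Depth and group could not be told apart in these libraries. The background pileup, a measure of depth recovered from each list, was 2.79 to 3.52 in the controls against 2.15 to 2.51 in the knockdown libraries. The median pileup at the members was 61.3 ± 3.21 and 30.3 ± 3.21 (SD, n = 3 each). The median fold at the members, over the local background, was also lower in the knockdown libraries, 10.2 ± 1.21 against 6.98 ± 0.428. Values were therefore compared as ranks over regions common to all libraries. The parts of depth and of enrichment over background in the results were not tested. The labelled cell type was checked at annotated starts of marker genes. A gene was counted as open where any of its annotated starts overlapped a region found in all 6 libraries. Of the 31 plasma cell and myeloma genes, 23 had a start in the table. All 23, among them PRDM1, XBP1 and IRF4, had a start open in all 6 libraries. So had 12 of 16 B cell genes, 7 of 13 T and NK cell genes, 5 of 15 myeloid genes and 5 of 7 epithelial and stromal genes. No listed peak lay at a start in any library for 4 of the 13 T and NK cell genes, among them CD3D and CD2. The same held for 6 of the 15 myeloid genes, among them CD14 and CSF1R, and for 2 of the 16 B cell genes. It held for 0 of the 7 epithelial and stromal genes. GATA3, EOMES, CEBPA and CD68 were among the genes with a start open in all 6.

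The members spanned 10.4 Mb in all and had a median width of 741 bp, from 169 to 3465 bp. The 4 widest lay inside RASA3 (3465 bp), TRPM8 (3190 bp), MSI2 (3177 bp) and ADGRL2 (2854 bp). The median distance to a gene end was 26.8 kb, 926 were more than 100 kb away, and the farthest was 556.4 kb away. Deep gene-body DNA amounted to 744.6 Mb and held 17.4 members per Mb. Intergenic DNA more than 10 kb from any gene end held 10.3 such regions per Mb. Of the 51877 deep regions found in at least 1 library, 24.9% were found in all 6, against 55.4% of regions within 1 kb of a gene end and 19.7% of intergenic ones.

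Members lay in 4532 host genes, 46.6% of the 9730 genes with any deep DNA. A host held a median of 2 members, 1921 hosts held 1, and 189 hosts with 10 or more held 19.2% of all members. CNTNAP2, a neuronal adhesion gene, held the most, 30, over 2034 kb of deep DNA, or 14.8 per Mb. FOXP1, a transcription factor of B cells, held 24 over 484.5 kb, or 49.5 per Mb. PDE4D, a cyclic AMP phosphodiesterase, and PTPRD, a receptor phosphatase, held 25 each. NSMCE2, a SUMO ligase of the SMC5/6 complex, held 23 at 97.9 per Mb, and GSE1 and HIVEP3 held 23 each at 73.8 and 55.8 per Mb. The most crowded short host was LTBP4, which binds latent TGF-beta, with 5 members in 16.7 kb. UAP1 and SLC25A25 held 5 each, at 254 and 238 per Mb.

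The density of members fell with distance from the start of the host gene, from 20.4 per Mb at 10 to 20 kb to 11.7 per Mb beyond 500 kb. It fell alike from the opposite end, from 21.4 to 10.3 per Mb. Long genes fill the far bins, so distance and gene length are not separated here. Genes with a start open in all 6 libraries were hosts in 48.3% of 6017 cases, with 18.4 members per Mb. Genes with no listed peak at any annotated start were hosts in 39.2% of 1294 cases, with 13.0 per Mb. Within genes of 100 to 300 kb the densities were 20.04 and 15.3 per Mb. Genes without a listed peak at a start still held members. ATP8B4, a flippase gene with none, held a region of the top 10 by rank.

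**Figure D1:**
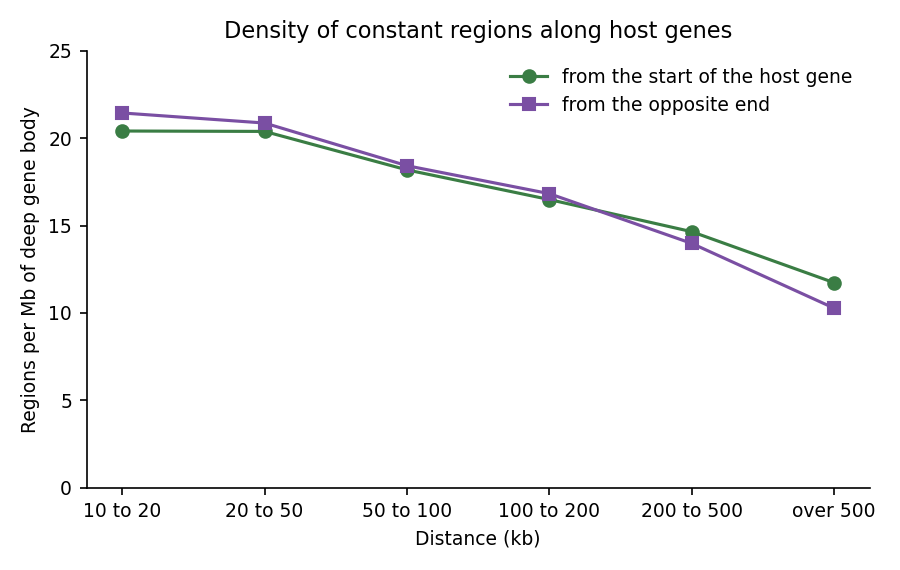
Regions per Mb of deep gene body (vertical axis) against distance in kb from the start of the host gene (circles) and from its opposite end (squares), for the constant deep regions of host genes whose strand is known. Both lines fall, from 20.4 to 11.7 and from 21.4 to 10.3 regions per Mb.

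The most enriched members stayed at the top in both groups. Each region was given a percentile rank in each library, from 0 for the lowest to 100 for the highest fold enrichment among the 59853 regions. Fold enrichment is the pileup at the summit over the local background, each with 1 added. The first by mean rank lay inside CAMK2D, a calcium-dependent kinase (chr4:113547301-113547982, 96.3 kb from a gene end). Its fold was 30.5, 30.4 and 28.5 in the controls against 27.3, 25.2 and 28.4 in the knockdown libraries, given throughout in the order of libraries 1, 2 and 3. The next lay inside PPP3CA, the catalytic subunit of calcineurin, RRP15, which processes ribosomal RNA, and LRBA, a vesicle trafficking gene. The top 10 also included regions inside ATP8B4, ZSWIM6, AKAP7, TCF7L1, ITGA8 and MAP3K13. Each of these 10 had a percentile of at least 99.3 in every library. In all, 34 members had a mean rank of 99 or above.

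As a class, members ranked lower in the knockdown libraries than in the controls, and regions at gene ends ranked higher. The median percentile of members was 46.7, 48.2 and 46.1 in the controls against 44.3, 44.04 and 44.4 in the knockdown libraries. The 2 groups did not overlap. Regions within 1 kb of a gene end went from 61.2 ± 2.69 to 69.7 ± 1.004 (SD, n = 3 each), and intergenic regions from 46.7 ± 1.05 to 43.8 ± 0.463. The directions of members and gene ends were opposite. Ranked by −log10 p, the median difference was −0.43 for members and 0.74 at gene ends, against −1.45 and 5.41 for ranks of fold. Since ranks are shared out among all regions, a rise in 1 class lowers others. The local background at members was 1.46 ± 0.0475 times that of the library in the controls against 1.32 ± 0.0224 times in the knockdown libraries. At gene ends it was 4.21 ± 0.187 and 3.35 ± 0.192 times, and its part in the ranks was not tested.

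Members at an annotated start did not follow the other members. Their median percentile was 60.5, 56.2 and 61.9 in the controls against 68.9, 69.9 and 69.0 in the knockdown libraries. That of the 12474 others was 46.0, 47.8 and 45.2 in the controls against 43.4, 43.5 and 43.9 in the knockdown libraries. In neither set did the groups overlap, and the directions were opposite. The median rank difference, knockdown minus control, was 5.78 at starts and −1.72 elsewhere, and at gene ends it was 5.41. The mean rank was higher in the knockdown libraries for 338 of the 464 (72.8%) and for 43.9% of the others. All 3 control ranks lay below all 3 knockdown ranks in 177 of the 464 (38.1%), where 20.2% of all regions did so. At gene ends the share was also 38.1%, although these members lay more than 10 kb from any gene end. Their median width was 1200.5 bp, against 728 bp for the others and 1159 bp at gene ends.

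**Figure D2:**
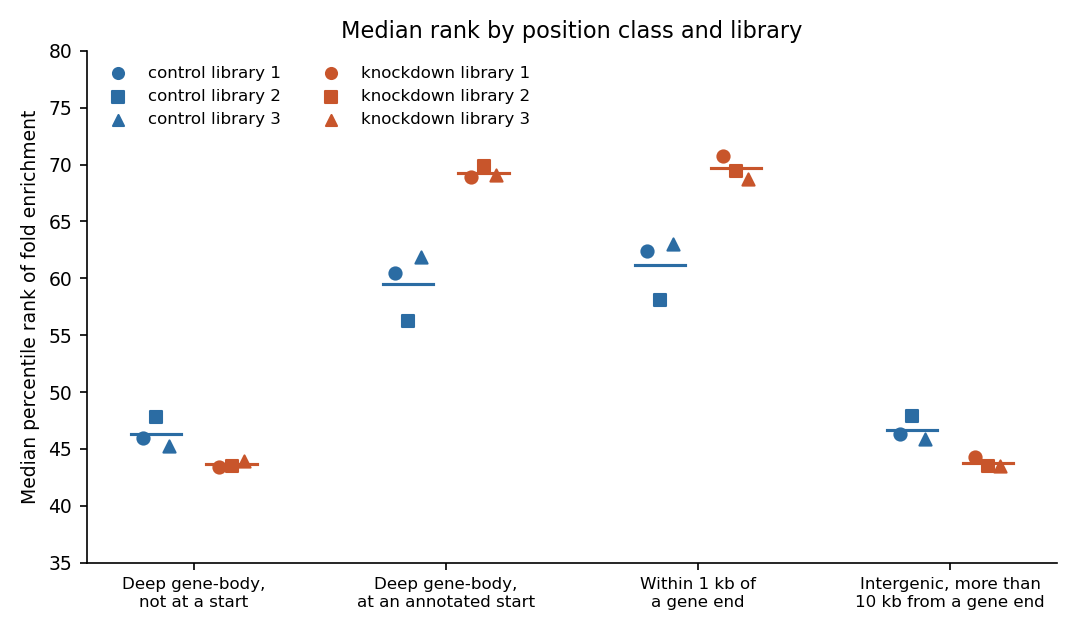
Median percentile rank of fold enrichment in each of 6 libraries (points, with a bar for the mean of each group of 3) for constant regions of 4 position classes. Deep regions at an annotated start rose from about the level of gene ends in the controls to 68.9 to 69.9 in the knockdown libraries, while other deep regions fell to 43.4 to 43.9.

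The shift at starts rose with the number of CpG in the 250 bases before the start. In the 111 members with 4 or fewer, the median percentile was 46.1, 47.8 and 51.3 in the controls against 51.7, 50.4 and 52.6 in the knockdown libraries, and the groups overlapped. In the 157 with 25 or more, it was 61.0, 55.6 and 64.3 in the controls against 75.4, 73.9 and 74.8 in the knockdown libraries, with no overlap. The median rank difference was 0.89, 2.63, 6.77 and 9.36 in the sets with 0 to 4, 5 to 14, 15 to 24 and 25 or more. The share with a higher mean rank was 54.1%, 61.7%, 86.4% and 87.3%. In the set richest in CpG, the local background was 4.75 to 5.15 times that of the library in the controls. In the knockdown libraries it was 3.68 to 4.26 times. In the poorest set it was 2.05 to 2.28 and 1.57 to 1.79 times. The part of background in the shift was not tested. Ranked by −log10 p in place of fold, the median difference was 0.82 at starts and −0.57 elsewhere, and 0.38, −0.82, 1.27 and 2.41 in the 4 CpG sets. The shift was thus more than 1.5 times smaller on that scale in each set, and of the opposite sign with 5 to 14 CpG.

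**Figure D3:**
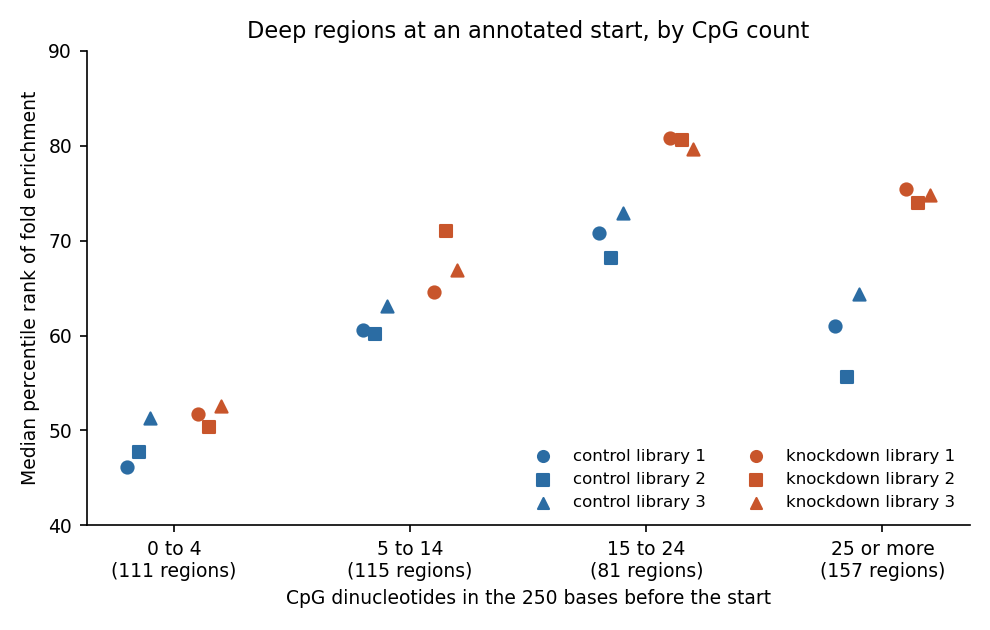
Median percentile rank of fold enrichment in each library (points) for the 464 deep regions at an annotated start, split by the number of CpG in the 250 bases before the start. With 25 or more, the controls sit between 55.6 and 64.3 and the knockdown libraries between 73.9 and 75.4, whereas with 4 or fewer the groups overlap.

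Single regions were tested with limma over all 59853 regions with Benjamini-Hochberg adjustment at 0.05. Of the members, 530 (4.10%) passed, where 4.36% of all regions did. The share was near the background. In the knockdown libraries 371 members (2.87%) ranked lower, where 2.27% of all regions did, and 159 (1.23%) ranked higher, where 2.1% of all did. All 3 knockdown ranks lay below all 3 control ranks in 2065 members (15.96%, against 13.3% of all regions) and above them in 1692 (13.1%, against 20.2%). Ranked and tested over the members alone, 172 (1.33%) were called, 100 lower and 72 higher, so both the share and the split depend on the regions ranked. The calls rest on the full set of libraries. Without control library 1, 2 or 3, or knockdown library 2, 0 members and 0% of all regions passed in limma. At an unadjusted limma p under 0.05 there were 2295 to 3070 of the 12938 members. The share of all regions at that threshold was not counted, so these numbers have no background. Without knockdown library 1, 35 members passed, where 0.227% of all regions did. Without knockdown library 3, 235 passed, where 1.44% of all regions did. Members called lower went from a median percentile of 77.1 to 36.3, and those called higher from 27.3 to 62.8.

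The largest fall among all members was at the start of IL21R, the receptor for interleukin-21, a cytokine that acts on B cells and plasma cells. The region (chr16:27426483-27427553, 1071 bp, 15.1 kb from a gene end) covers the annotated start whose sequence is printed above. Its percentile was 80.7, 90.1 and 79.3 in the controls against 10.5, 3.12 and 18.6 in the knockdown libraries. The groups lay far apart, and the rank fell by 72.6 (SE 7.04, limma adjusted p = 0.0226). Its pileup was 122, 158 and 122 in the controls against 12, 9 and 16 in the knockdown libraries, and its fold enrichment 15.5, 20.4 and 14.4 against 3.71, 3.17 and 4.85. Peaks covered 1003, 1018 and 869 bp of it in the controls against 155, 318 and 343 bp in the knockdown libraries. In knockdown library 2 its −log10 q was 2.09, just above the 2 that kept it among the members. Leaving out 1 library at a time, the fall was 68.8 to 76.6 and the adjusted p 0.0344 to 0.122.

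The sequence before this start holds TGATGCAAT at chr16:27427153-27427161, and no CpG. The other 3 members with the motif did not share a direction. The region at the ATF7IP start (a partner of ATF7 in gene silencing) had percentiles of 30.5, 35.4 and 29.4 in the controls against 21.5, 9.48 and 13.6 in the knockdown libraries (difference −16.9, SE 5.94, limma adjusted p = 0.112). That of UIMC1, a DNA repair factor, had 57.4, 52.5 and 55.5 against 75.2, 70.3 and 67.5 (difference 15.9, SE 5.46, adjusted p = 0.106). That of TACC2, a centrosome protein, had 66.5, 71.3 and 75.4 against 79.3, 77.6 and 86.6 (difference 10.1, SE 4.71, adjusted p = 0.201). None of these 3 passed, and 1 had a lower and 2 a higher mean rank in the knockdown libraries. In each of the 3 the groups did not overlap, as in 33.4% of all regions.

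Of the members at a start, 1 other was called lower. It lay in FAM178B (chr2:96895327-96896478), with percentiles of 67.8, 73.1 and 81.1 in the controls against 11.5, 26.3 and 46.6 in the knockdown libraries (limma adjusted p = 0.0394). The 250 bases before its start hold 4 CpG. In all, 2 of the 464 members at a start were called lower (0.431%, against 2.27% of all regions) and 9 higher (1.94%, against 2.1%), so the share of rises was near the background. PRR5L, a partner of mTOR complex 2, led them (chr11:36400445-36401347), with percentiles of 3.55, 2.53 and 3.74 in the controls against 56.8, 43.5 and 49.4 in the knockdown libraries (difference 46.6, SE 6.22, adjusted p = 0.0257). Its pileup was 14, 13 and 15 against 27, 21 and 27. The other 8 were at starts of PRRC2B, KLF16, TXLNB, DIDO1, NREP, GATAD2A, SLC39A10 and PSMA1, with differences of 26.0 to 39.0. These 8 starts held 8 to 45 CpG.

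Of the 12474 members away from annotated starts, 369 were called lower (2.96%, against 2.27% of all regions) and 150 higher (1.20%, against 2.1%). LPP, which encodes a LIM protein of cell adhesions, held the next largest fall (chr3:188788210-188789258, 99.3 kb from a gene end). Its percentile was 85.5, 79.2 and 86.4 in the controls against 25.03, 13.0 and 15.5 in the knockdown libraries (difference −65.9, SE 6.52, limma adjusted p = 0.0226). Its pileup was 117, 107 and 122 against 16, 12 and 15. A region inside NTNG1, an axon guidance gene, had 89.0, 81.2 and 79.6 against 14.1, 6.08 and 36.5. That inside COG5, a Golgi subunit, had 76.9, 89.7 and 75.7 against 3.87, 34.1 and 12.5. In each of these the lowest control exceeded the highest knockdown library, as it did in all 371 members called lower.

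The same held for the other 4 of the 8 largest falls. RMND5A, a subunit of a ubiquitin ligase, had percentiles of 71.8, 93.5 and 74.9 against 17.7, 23.7 and 7.04. TADA2A, an adaptor of histone acetyltransferase complexes, had 77.2, 79.7 and 81.4 against 20.05, 3.12 and 23.8 (chr17:37429535-37430695). Regions inside ABLIM3, an actin-binding gene, and ZNF138, a zinc finger gene, fell by 61.7 and 61.6. All 8 had a limma adjusted p of at most 0.0257. The local background at the members called lower was 1.31 times that of the library in the controls against 1.05 times in the knockdown libraries, by the median.

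The largest rise was inside ST6GALNAC3, a sialyltransferase gene (chr1:76170054-76170855, 95.3 kb from a gene end). Its percentile was 13.2, 18.1 and 4.88 in the controls against 82.0, 62.1 and 68.5 in the knockdown libraries (difference 58.8, SE 7.65, limma adjusted p = 0.0257). Its pileup was 21, 25 and 16 against 41, 28 and 36, higher in every knockdown library than in any control. IPCEF1, a cytohesin partner, had percentiles of 11.6, 6.65 and 17.1 against 76.5, 67.0 and 60.1, and pileups of 20, 17 and 24 against 47, 37 and 38. EXOC6, an exocyst subunit, had 29.0, 34.7 and 27.6 against 79.6, 78.6 and 77.0. That was the narrowest spread within the knockdown libraries among the 8 largest rises. The others of these 8 lay inside ATP8A1, a lipid flippase, FRRS1, ARHGAP24, PTPRK and PRR5L, with differences of 46.6 to 49.97.

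**Figure D4:**
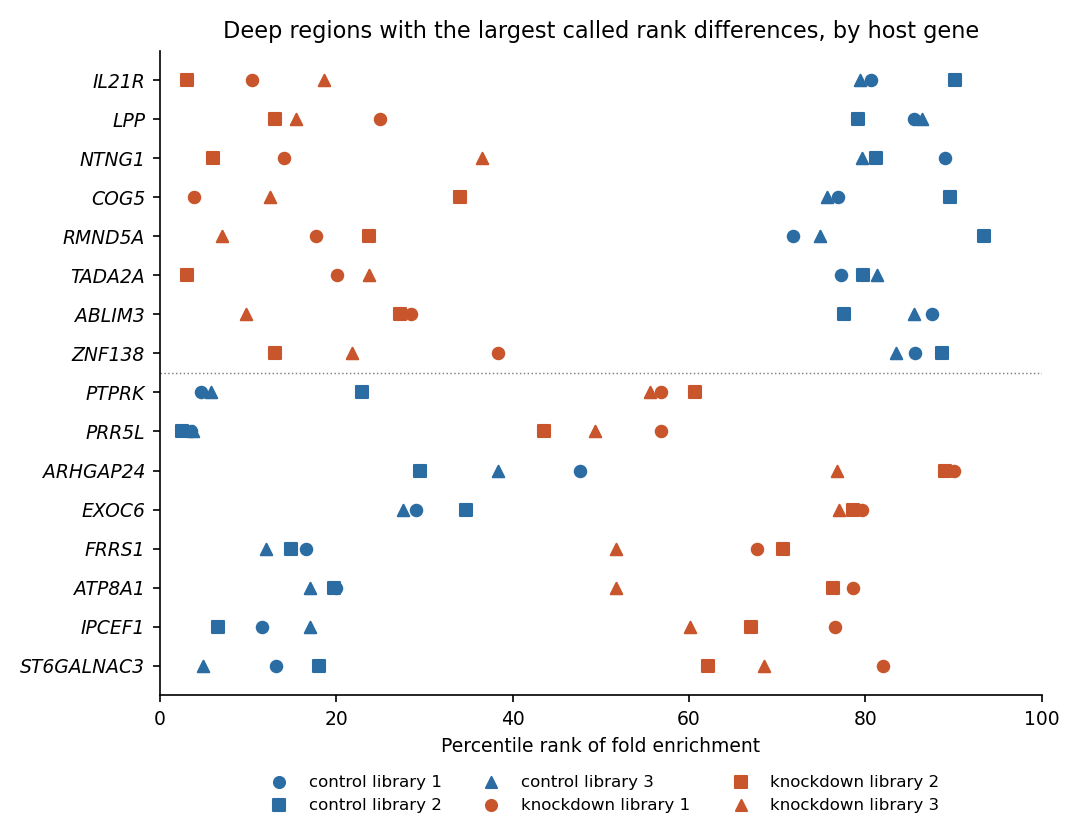
Percentile rank of fold enrichment in each library (horizontal axis, 0 to 100) for the 8 deep regions with the largest called falls (above the dotted line) and the 8 with the largest called rises (below it), named by host gene. In each of the 16, as in all called members, the 3 control and the 3 knockdown libraries do not overlap. The regions run from IL21R (fall of 72.6) to ST6GALNAC3 (rise of 58.8).

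Members were covered by narrower peaks in the knockdown libraries. The median covered length was 608, 568 and 603 bp in the controls against 450, 459 and 477 bp in the knockdown libraries, with no overlap. The share of members with 2 or more summits was 53.1% ± 3.79 and 38.0% ± 2.10 (SD, n = 3 each). The median difference was −0.24 on the log2 scale, against −0.20 over all regions found in all 6, −0.13 at gene ends and −0.26 for intergenic regions. All 3 knockdown widths lay below all 3 control widths in 3834 members (29.6%, against 30.3% of all regions) and above them in 152 (1.17%, against 1.11%). With each library centred on its own median width, the median difference of members was 0.06, and limma called 0 members and 0% of all regions. There were 2150 of the 12938 members at an unadjusted limma p under 0.05, and the share of all regions there was not counted. Without centring it called 114 members (0.881%, against 1.08% of all regions), 112 narrower (against 1.06%) and 2 wider (against 0.0134%). The widest single peak in place of the covered length gave 5 calls, where 0.0735% of all regions were called.

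**Figure D5:**
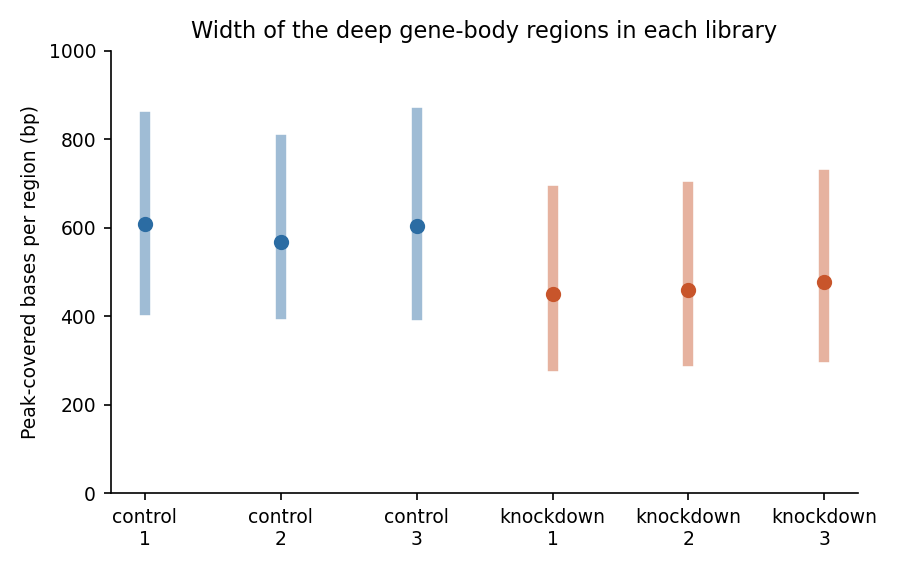
Bases of each constant deep region covered by peaks with a −log10 q of at least 2, in each library (point, median of 12938 regions; thick bar, middle 50% of regions). The medians are 568 to 608 bp in the controls against 450 to 477 bp in the knockdown libraries.

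The single widths with the smallest p are given as values, since none passed the centred test. Inside MACROD2, a very long gene for an ADP-ribose hydrolase (chr20:14832433-14833490), peaks covered 429, 406 and 422 bp in the controls against 1050, 838 and 1058 bp in the knockdown libraries. Its percentile rose from 29.0, 36.5 and 25.8 to 87.3, 74.6 and 67.5 (limma adjusted p = 0.0291). Inside LMNA, the gene of lamin A, a region of 1624 bp was covered over 1256, 1115 and 1302 bp against 1419, 1346 and 1594 bp, at a percentile of 12.5 or less in every library. DUSP22 had 1490, 1395 and 1428 bp against 1687, 1748 and 1611 bp. In these 3 every knockdown library exceeded every control. In the opposite direction, a region inside RIPOR2 had 856, 1097 and 1133 bp against 368, 341 and 358 bp. The rank of that region overlapped between the groups, with percentiles of 30.2, 25.4 and 14.8 against 21.5, 13.7 and 27.9.

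Genes of the plasma cell and myeloma list held 58 members at 36.6 per Mb of deep DNA, against 17.4 over all genes. IKZF3 and ELL2, the transcription factor Aiolos and an elongation factor of antibody-secreting cells, held 8 each, and RUNX1 and POU2F1 held 7 each. The most enriched lay inside POU2F1 (percentiles of 98.6, 98.9 and 98.7 in the controls against 96.1, 93.0 and 95.2 in the knockdown libraries, limma adjusted p = 0.1501). Of the 58, 1 was called, where 4.36% of all regions were, and it ranked higher (2.1% of all), inside PRDM1, a master regulator of plasma cells (chr6:106097544-106098247). Its percentile was 2.35, 7.05 and 6.64 in the controls against 27.9, 21.7 and 26.2 in the knockdown libraries (adjusted p = 0.0424). The median rank difference over the list was 0.51, against −1.45 over all members and 0.73 over all regions.

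B cell genes held 73 members at 26.0 per Mb, 24 of them in FOXP1, 16 in TCF4 and 14 in ARHGAP24, and 2 were called lower and 2 higher, where 2.27% and 2.1% of all regions were. ARHGAP24, which encodes a GTPase-activating protein, held a call in each direction. Its region at chr4:85498165-85499047 had percentiles of 47.7, 29.6 and 38.3 against 90.04, 89.1 and 76.8, and that at chr4:85979047-85979764 had 97.4, 99.4 and 96.8 against 78.5, 86.9 and 85.1. The 2 called regions of this host thus differed in direction, and whether members of a host move together was not tested. FOXP1 held 1 rise (59.6, 59.3 and 53.7 against 84.8, 81.8 and 80.5), and TCF4, a partner of E2A, 1 fall (98.7, 98.2 and 94.4 against 82.0, 82.7 and 82.7).

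ATF4 target and stress genes held 27 members in 8 of 33 genes, at 25.3 per Mb of deep DNA. They included 7 in ERN1 and 5 in EIF2AK3, the IRE1 and PERK sensors of endoplasmic reticulum stress, and 6 in ATF6. ASNS, asparagine synthetase, held 1. Of the 27, 1 was called, where 4.36% of all regions were, a fall inside ATF6 (chr1:161923691-161924392), from 55.2, 69.2 and 60.4 in the controls to 26.2, 28.9 and 26.0 in the knockdown libraries (limma adjusted p = 0.0361). The best ranked region of EIF2AK3 had 99.1, 97.7 and 97.9 against 91.3, 89.3 and 95.9, with no overlap, and did not pass (adjusted p = 0.108). The median rank difference of the 27 was −0.48.

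NF-kB genes held 19 members at 31.2 per Mb, and 1 of the 19 was called, where 4.36% of all regions were. It was a fall inside TRAF3IP2, an adaptor of interleukin-17 signalling, from 85.3, 86.2 and 91.0 to 69.0, 42.4 and 53.9 (limma adjusted p = 0.0422). RELB, the partner of p52, held 1 member (chr19:45015767-45017443, 1677 bp). Its percentile was 62.6, 60.9 and 62.4 in the controls against 82.7, 78.8 and 75.3 in the knockdown libraries, with no overlap (difference 17.0, SE 4.81, adjusted p = 0.0699), and it did not pass. With ranks of −log10 p the difference was 1.67 (limma adjusted p = 0.469), and with eBayes without trend and robust settings the adjusted p was 0.0455. BACH1, named in the title of the study, held 1 member (chr21:29348132-29348939), with 73.5, 57.6 and 70.2 against 74.0, 68.9 and 70.7. These groups overlapped (difference 4.11, SE 5.75, adjusted p = 0.679). The BACH1 and NRF2 list held 5 members in 3 genes, and limma called 0 of them, with 0 at an unadjusted p under 0.05.

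Coactivator and chromatin enzyme genes held 110 members at 22.8 per Mb, with 3 called lower and 2 higher. KMT2D and KMT2C, methyltransferases of enhancer histones, each held a fall. The KMT2D region (chr12:49043757-49044430) had 64.0, 77.5 and 61.8 against 20.5, 15.3 and 30.1, and the KMT2C region had 54.1, 45.6 and 66.3 against 25.03, 20.3 and 2.56. HDAC9, a histone deacetylase, held a fall from 86.3, 71.4 and 70.7 to 32.0, 43.5 and 38.5. ARID1B, a subunit of the BAF remodeller, and NCOA1, a nuclear receptor coactivator, each held a rise. The region of ARID1B had 53.8, 39.3 and 56.0 against 81.5, 77.8 and 81.1. The share called, 5 of 110, was near the background of 4.36%.

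Signalling genes held 154 members at 24.5 per Mb, with 3 called lower and 3 higher. These 6 of 154 are near the background of 4.36%. Inside IL6R, the receptor of the myeloma growth factor interleukin-6, a region ranked 47.6, 57.0 and 60.4 in the controls against 76.7, 91.9 and 84.3 in the knockdown libraries (limma adjusted p = 0.0402). DEPTOR, an inhibitor of mTOR, held a rise from 12.8, 8.96 and 10.1 to 47.8, 50.6 and 49.8. MAP2K5, a kinase of the ERK5 pathway, held one from 18.3, 3.44 and 3.74 to 57.2, 43.5 and 62.8. The falls lay in VAV3, ELMO1 and MAP3K5, and that of VAV3 went from 83.4, 87.8 and 50.2 to 14.1, 16.6 and 21.7.

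Very long neuronal and adhesion genes held 416 members, at 8.63 per Mb, with 7 called lower and 4 higher, where 2.27% and 2.1% of all regions were. PCDH9, a protocadherin, held a fall from 97.3, 92.3 and 92.1 to 73.0, 68.7 and 73.7. The densities of the lists of other cell types were 23.8 per Mb for T and NK cell genes, 17.4 for myeloid genes and 35.3 for epithelial and stromal genes. A list density above that of all genes was therefore not particular to genes of the labelled cell type. These lists had 22, 16 and 33 members. Of these 71, 1 was called, where 4.36% of all regions were, a rise inside CDH1, from 42.6, 43.2 and 40.7 to 72.6, 71.1 and 69.5.

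The members nearest the thresholds of the rule are given for scale. The lowest −log10 q that kept a region was 2.003 inside RREB1 and 2.004 inside GRHL2, and regions inside MANEA and DOCK4 at 1.995 and 1.994 were left out. The shortest distances were 10.002 kb inside PFKFB3 and 10.004 kb inside NFKBIZ, and regions inside SULT2B1 and PCF11 at 9.998 and 9.996 kb were left out.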

How the data were processed

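Peak lists of 6 ATAC-seq libraries, 3 per group, were used. Per the submitters' processing notes, MACS2 and hg38 were used, and each library has its own list. Version, settings, aligner, read filters and any shift for the transposase are not given in the sources used. The deposited fold is a ratio of pileup to local background at a summit, and the deposited −log10 p and −log10 q are the caller's, within 1 library. The deposited score is 10 times the −log10 p and was used to check columns only. All these values are the authors' and move with depth. Tests were run on ranks over common regions and on covered bases, and pileups, folds and local backgrounds are given as description.

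Peaks were merged where they overlapped by 1 bp or more, and the highest fold in a region gave its rank. Width was the log2 of bases covered by peaks, centred on the library median for the test. Pileup and local background were recovered from fold and −log10 p for 100% of summits (within 0.01). Both measures were fitted with limma 3.58.1 in R 4.3.3 (eBayes, trend and robust, with Benjamini-Hochberg adjustment) over all 59853 regions. The fit was also run on data simulated from residuals of these libraries, and no result here rests on that run. Where nothing more is said of cultures than the replicate labels, p-values measure the spread between these samples, which may be technical. Group medians over members have no test. With 3 against 3, an exact permutation test cannot go below 0.1.

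Genes and promoter sequences came from RefSeq tables on GRCh38.p14, which is the hg38 assembly, with 56756 genes on chromosomes 1 to 22, 19126 of them protein-coding. Starts and strand were in the promoter table for 15101. Of 305 list genes, 4 were not on these chromosomes. No genome sequence was used, so the sequence of members away from starts, and exons and introns, were not analysed here. The members, gene lists, motifs and CpG sets were chosen with earlier results of these data known. Named items are the 10 highest ranks, the 8 largest rank calls and the 4 width differences with the smallest p in each direction, the 8 hosts with most members and the 4 densest, the 4 widest, up to 3 per gene list, study genes, and those nearest each threshold. Some items that this rule names are not reported here. Called members at starts, motif holders and called list members were added after their values were seen. Alternatives were other thresholds, ranks, widths, tests and leaving out each library.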

Additional observations from a re-analysis of the deposited data

How the results depend on the processing

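The number of members was 8339 at more than 20 kb from gene ends, and 7410 when peaks had to cover at least 50% of a region in every library. It was 13012 to 14155 with the rule applied to 5 libraries. Rank calls among members, 530 in the report, were 337 and 322 under those same 2 rules, where 4.36% and 4.3% of all regions were called. They were 976 with ranks of −log10 p, where 7.73% of all regions were called. Without 1 library they were 0 to 235, where 0% to 1.44% of all were called. Ranks over the members alone, chosen after seeing the data, gave 172 calls (1.33% of the members, 100 lower and 72 higher). The calls split 371 lower and 159 higher, against 353 and 247 with eBayes without trend and robust settings, where 5.56% of all regions were called. Whether libraries of the 2 groups were paired by replicate number could not be settled. Deviations of same-numbered libraries had correlations of 0.0482, 0.00262 and −0.0149 for ranks, and other pairs had −0.0475 to 0.0469. For widths the same-numbered pairs had 0.0162, 0.0136 and 0.0146, and other pairs had −0.00867 to −0.0054. With the replicate number as a block, limma called 0 members and 0% of all regions for rank (3108 members at an unadjusted p under 0.05). For width it also called 0 members and 0% of all regions (1938 members at an unadjusted p under 0.05). The shares of all regions at an unadjusted p were not counted, so these numbers have no background.

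The median rank difference of members was −0.43 with ranks of −log10 p, against −1.45, and −1.03 to −1.72 without 1 library. At starts it was 0.82 on that scale, against 5.78, and 4.21 to 6.67 without 1 library. Width calls were 0 without any 1 library, where 0% of all regions were called. At an unadjusted limma p under 0.05 these fits held 1488 to 2337 members, again with no share of all regions counted. They were 6 at a −log10 q of at least 5 (0.0422% of all regions called), 114 without centring (1.08%) and 5 with the widest single peak (0.0735%). The median width difference was −0.15 where peaks cover at least 50% of the region, 0.063 when centred, and −0.22 to −0.27 without 1 library. The cause of these changes was not tested. All 16 named rank calls kept their direction without 1 library, which is fixed in advance where the groups do not overlap. Of their 96 values, 24 passed, and the limma adjusted p was 0.0344 to 0.122 over the 96. The rank difference of the BACH1 region was 4.11, and −0.62 to 7.32 without 1 library, negative without control library 2. Every knockdown library had a lower background pileup, the measure of depth used here, than every control. The median fold at members was lower too, and the parts of depth and of enrichment were not tested.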

Other observations

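Members were unevenly spread over chromosomes. Chromosome 19 held 24.2 per Mb of deep gene body and chromosome 13 held 9.51, the extremes of the 22. On chromosome 13 the local background at members was at the library-wide rate by the median, 0.999 to 1.02 times in all 6 libraries. On chromosome 19 it was 2.15 to 2.19 times in the controls against 1.77 to 1.88 times in the knockdown libraries. Chromosome 22 had 43 of 196 members (21.9%) with all knockdown ranks below all control ranks and 12 (6.12%) with all above, and chromosome 4 had 14.1% and 15.9%. Over all regions the shares were 13.3% and 20.2%.

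Deep regions found in the 3 controls and in no knockdown library at a −log10 q of at least 2 numbered 1388, and 99 were found in the 3 knockdown libraries and in no control. The deep regions numbered 51877 in all. The corresponding counts were 524 and 45 of 31255 regions within 1 kb of a gene end, and 1025 and 106 of 45571 intergenic ones. Among the remaining 80153 regions they were 2189 and 142. The excess of regions seen only in controls was thus not particular to deep regions. Regions seen in a single group are not members, and depth and group cannot be told apart in them. The nearest other member was within 5 kb for 27.99% of members, and at a median of 14.4 kb.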
